A study of Mus musculus with 12 samples.

Results

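The BCL2 family genes examined in mouse liver were 10 genes taken by name: the survival genes Bcl2l1 (encoding BCL-XL), Mcl1, Bcl2 and Bcl2l2 (BCL-W), the effector genes Bax and Bak1, and the BH3-only genes Bid, Bcl2l11 (BIM), Bbc3 (PUMA) and Bmf. Of these, 9 had a row among the 11289 genes of the expression table: 3 survival genes and 6 death-promoting genes, the latter being 2 effectors and 4 BH3-only genes. Bcl2 had no row under that name and was not analysed here.

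The proteins of this family set whether the outer membrane of the mitochondrion stays closed. Survival members bind and hold back the effectors BAX and BAK, which otherwise form pores that release cytochrome c, and BH3-only members start the process by occupying the survival members or by activating the effectors directly. In the liver, BCL-XL and MCL-1 keep hepatocytes alive, and BID joins death receptors at the cell surface to the mitochondrial route.

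The study asked how mesenchymal stromal cells from the Wharton's jelly of the human umbilical cord (hWJ-MSCs, called hUC-MSCs in the labels) alter acute hepatitis caused by concanavalin A (Con A), a lectin of the jack bean that drives T cells into action. C57BL/6J mice, 8 to 10 weeks old, fell into 3 groups of 4: control mice, mice given Con A and then PBS (Con A + PBS), and mice given Con A and then the cells (Con A + hWJ-MSCs). Con A was injected once into the tail vein at 15 mg/kg, PBS or 2000000 cells followed by vein after 30 min, and liver was taken at 24 h. Cell number and age are those of the labels, and the study's methods give a smaller number of cells and younger mice. Whole-liver mRNA was sequenced with a kit that does not mark strand. What the control mice were injected with is not stated in the labels. The infused cells were human and the hosts were mice of a normal inbred strain, and reads from human RNA were not examined.

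The submitters named the table one of counts, but its values were treated as normalised ones, already on 1 scale for all mice: the median was 352 in every mouse and the totals ran from 17649654 to 17657159. The read depth behind them is unknown, so no counting interval is given. Every gene in the table reached 64 in at least 2 mice, so a gene that did so in fewer than 2 control mice, or in fewer than 2 of the 8 mice given Con A, entered the table through the other side, and its direction against control is not an independent result. Levels can be compared between mice for 1 gene but not between genes, because they are not per length. A gene was called changed when its Benjamini-Hochberg adjusted p over all genes was below 0.05 and its fold change was above 1.5, in limma on log2(value + 1) with all 12 mice in one fit. Log2 fold changes are on that scale, with their standard error (SE) or 95% confidence interval (CI), and the 3 comparisons share mice. Shares of all genes at looser limits, such as an unadjusted p below 0.05 or no fold limit, were not counted.

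The liver identity of the samples was visible in all 10 hepatocyte markers, with albumin (Alb) at the table's largest value, 341028, in every mouse. The summed level of the 10 hepatocyte markers was 1159158 to 1399020 in control mice, 605731 to 646612 in Con A + PBS mice and 617351 to 704561 in Con A + hWJ-MSCs mice, and 6 of the 10 fell with Con A. This sum is compressed by the ceiling, which 4 of the 10 reached in at least 1 mouse. The 6 that never reached it summed to 256163 to 335477 in control mice, 155720 to 200732 with PBS and 139976 to 173118 with hWJ-MSCs, and 3 of these 6 fell. Neutrophil markers with a row, 6 of 8 listed, were all higher with Con A, their sum being 67 to 153 in control mice, 884 to 1868 with PBS and 827 to 1725 with hWJ-MSCs. The 3 T cell markers with a row, of 10 listed, summed to 15 to 43 in control mice, 226 to 358 with PBS and 222 to 313 with hWJ-MSCs, and the 2 NK cell markers with a row, of 5 listed, to 16 to 35, 170 to 250 and 156 to 386. All of these neutrophil, T cell and NK cell markers entered the table through the Con A mice, so their counts are no independent result. Among markers free of that limit, pan-leukocyte markers gave 4 rises among 6, monocyte and macrophage markers 3 rises and 4 falls among 8, and endothelial markers 1 rise and 3 falls among 6 with Con A. Likewise, stellate cell markers gave 3 falls among 6 and erythroid markers 5 falls among 5, where 19.5% of all genes were called up and 19.2% down. No B cell marker of 4 had a row. Between the Con A groups, 1 of 7 endothelial markers rose and 2 fell in mice given hWJ-MSCs, where 4.20% of all genes were called up and 4.38% down, and of 47 markers of the other lists none was called (limma; 7 had an unadjusted p below 0.05). These shifts moved with the family values given next and their part in them was not tested. In whole liver, fewer cells of a type and less RNA per cell cannot be told apart.

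In the deposited mm10 coordinates, Bcl2l1 lay on chromosome 2 from 152780668 to 152831728 on the minus strand, Mcl1 on chromosome 3 from 95658721 to 95663176 on the plus strand, and Bcl2l2 on chromosome 14 from 54883377 to 54888234 on the plus strand. The effector genes Bax and Bak1 lay on chromosomes 7 (45461695 to 45466898) and 17 (27019810 to 27029009), both on the minus strand. Among the BH3-only genes, Bid lay on chromosome 6 (120891930 to 120916836, minus), Bcl2l11 on chromosome 2 (128126039 to 128162547, plus), Bbc3 on chromosome 7 (16309616 to 16318205, plus) and Bmf on chromosome 2 (118528757 to 118549687, minus). Each is the span of the whole transcript, exons and introns together, and 7 of the 9 had the same ends in GENCODE M21. Bcl2l2, Bax, Bak1 and Bid overlap other annotated genes (Gm20521, Gm45808, Ggnbp1, and Bcl2l13 with Gm17812 and Gm44260, respectively). Gm20521, Gm45808 and Gm44260 lie on the same strand as the member they overlap, and Ggnbp1, Bcl2l13 and Gm17812 on the opposite one. The values of Bcl2l2, Bax, Bak1 and Bid may hold reads of these neighbours. Those of the opposite strand are included because the kit does not mark strand.

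The upstream sequence of 5 members is shown: Bcl2l1, Bax and Bcl2l11, 1 gene of each role among those called up after Con A, and Bbc3 and Bmf, the genes called down. They were picked after their values were seen, and Mcl1, Bak1 and Bid, also called up, are not printed. Each line is the 250 bases before the RefSeq start (GRCm38.p6), written 5′ to 3′ on the strand of the gene. The windows are chr2:152831729-152831978 on the minus strand for Bcl2l1, chr7:45466899-45467148 on the minus strand for Bax, chr2:128125788-128126037 on the plus strand for Bcl2l11, chr7:16309333-16309582 on the plus strand for Bbc3 and chr2:118549687-118549936 on the minus strand for Bmf. Capitals mark a match to 1 of 5 motifs searched on both strands.
Bcl2l1: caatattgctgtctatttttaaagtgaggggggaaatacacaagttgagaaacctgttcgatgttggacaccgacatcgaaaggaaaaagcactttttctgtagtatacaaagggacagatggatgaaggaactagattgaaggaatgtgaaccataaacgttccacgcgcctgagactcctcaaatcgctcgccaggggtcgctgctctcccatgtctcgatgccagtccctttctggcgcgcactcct
Bax: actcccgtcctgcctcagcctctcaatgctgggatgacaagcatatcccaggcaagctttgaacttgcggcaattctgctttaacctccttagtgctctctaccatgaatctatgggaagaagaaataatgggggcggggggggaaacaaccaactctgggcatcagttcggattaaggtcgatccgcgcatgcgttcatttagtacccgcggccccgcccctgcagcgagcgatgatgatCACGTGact
Bcl2l11: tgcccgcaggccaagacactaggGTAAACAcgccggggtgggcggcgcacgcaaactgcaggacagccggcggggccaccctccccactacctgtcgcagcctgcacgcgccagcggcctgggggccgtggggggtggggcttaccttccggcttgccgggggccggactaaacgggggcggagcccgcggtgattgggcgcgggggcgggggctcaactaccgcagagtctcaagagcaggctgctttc
Bbc3: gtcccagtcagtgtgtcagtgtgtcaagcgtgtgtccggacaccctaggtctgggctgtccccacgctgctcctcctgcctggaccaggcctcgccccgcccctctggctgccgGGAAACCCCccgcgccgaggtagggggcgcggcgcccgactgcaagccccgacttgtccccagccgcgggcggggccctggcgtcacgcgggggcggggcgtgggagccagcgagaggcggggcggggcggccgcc
Bmf: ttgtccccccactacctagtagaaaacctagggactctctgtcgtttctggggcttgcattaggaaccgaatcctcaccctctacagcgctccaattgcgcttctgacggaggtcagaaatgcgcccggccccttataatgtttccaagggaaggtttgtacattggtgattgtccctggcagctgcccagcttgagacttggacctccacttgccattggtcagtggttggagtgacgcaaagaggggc

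The capitals in Bax are an E-box (CACGTG, present in 6.02% of 32851 RefSeq promoters of this length) beginning 9 bases before the start. Those in Bcl2l11 are a forkhead motif (TGTTTAC, 3.17% of promoters) on the opposite strand, 227 bases before the start, and those in Bbc3 an NF-kB motif (GGGNNTTCC, 4.98%) on the opposite strand, 136 bases before it. Neither the STAT motif (TTCNNNGAA, 7.02%) nor the AP-1 motif (TGANTCA, 6.75%) was found in any of the 9 members' windows, and Bcl2l1 and Bmf held none of the 5. Bases G and C made up 76.4% of the Bbc3 window, 72.0% of Bcl2l11, 54.0% of Bax and of Bmf, and 47.6% of Bcl2l1, with a median of 52.4% over all promoters. A match of letters is a description of the sequence and shows no binding.

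Con A changed most of the family. Against control mice, 6 of the 9 members rose in Con A + PBS mice (Bcl2l1, Mcl1, Bax, Bak1, Bid and Bcl2l11), 2 fell (Bbc3 and Bmf) and Bcl2l2 was not called. Over all genes, 19.5% were called up and 19.2% down in this comparison. Bmf reached 64 in the 4 control mice and in no mouse given Con A, so it entered the table as a gene higher in control mice. Leaving it out, 6 of 8 members rose and 1 fell. The median log2 fold change of the 9 members was 0.82, or 0.91 without Bmf, with 0.05 for all genes. The rises included survival and death-promoting genes alike.

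**Figure D1:**
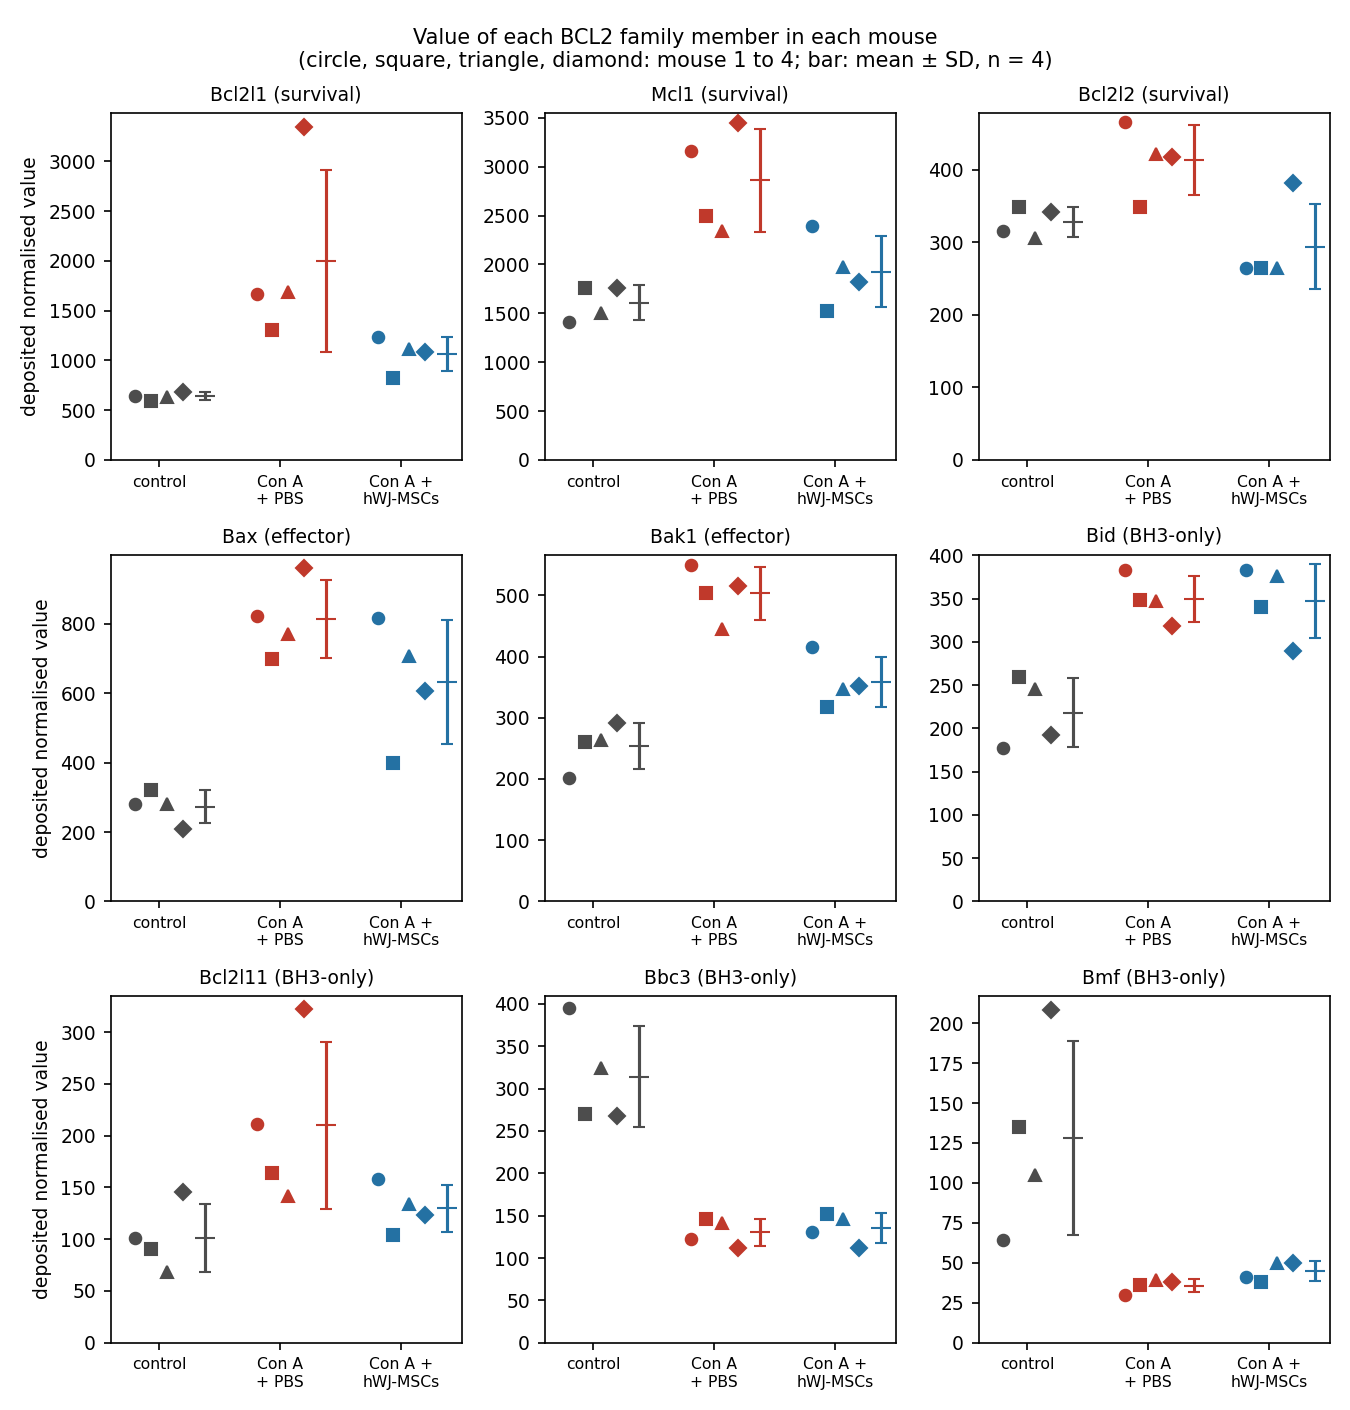
The plot of member values by mouse gives the deposited normalised value (vertical axis, from 0, scaled for each gene) of each of the 9 genes in control (grey), Con A + PBS (red) and Con A + hWJ-MSCs (blue) mice, with symbols for mice 1 to 4 and bars for the mean ± SD (n = 4). Bcl2l1 in Con A + PBS mouse 4 reaches 3346, and the Bbc3 and Bmf values of both Con A groups lie below every control mouse.

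Bcl2l1, which encodes BCL-XL, a survival protein of the mitochondrial outer membrane, had values of 647, 594, 628 and 688 in control mice 1 to 4 and 1672, 1302, 1686 and 3346 in Con A + PBS mice 1 to 4. Con A + hWJ-MSCs mice 1 to 4 had 1235, 826, 1116 and 1081. Con A + PBS mouse 4 stood well above its group, and the 3 groups did not overlap. The means were 639 ± 39.2, 2002 ± 914 and 1064 ± 172 (SD, n = 4 each). Bcl2l1 rose with Con A by 1.55 on the log2 scale (SE 0.23, limma adjusted p = 0.000145).

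Mcl1, whose short-lived protein holds back BAK and BIM, stood at 1410, 1762, 1504 and 1762 in control mice. Its values were 3161, 2496, 2340 and 3445 with PBS and 2396, 1526, 1974 and 1816 with hWJ-MSCs. Every Con A + PBS mouse was above every control mouse, while the mice given cells overlapped both other groups. The rise with Con A was 0.82 on the log2 scale (SE 0.16, limma adjusted p = 0.00103).

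Bcl2l2, the gene of the survival protein BCL-W, moved least among the survival genes after Con A. Control mice had 316, 348, 306 and 342, Con A + PBS mice 466, 348, 422 and 417, and Con A + hWJ-MSCs mice 264, 264, 265 and 382. The lowest Con A + PBS mouse equalled the highest control mouse. The log2 fold change with Con A was 0.33 (95% CI 0.04 to 0.62, limma adjusted p = 0.0548) and was not called.

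Both effectors rose. Bax, which forms pores after moving to the mitochondrion, was at 282, 320, 282 and 208 in control mice, 824, 698, 772 and 962 in Con A + PBS mice and 817, 399, 709 and 606 in Con A + hWJ-MSCs mice. Bak1, which encodes BAK, the pore former already resident in the membrane, was at 202, 260, 264 and 291, then 549, 503, 445 and 516, and then 416, 318, 347 and 352. Both Con A groups lay wholly above control for both genes. The log2 fold change with Con A was 1.58 for Bax (SE 0.20, limma adjusted p = 4.9e-05) and 0.99 for Bak1 (SE 0.13, limma adjusted p = 4.7e-05).

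Among the BH3-only genes, Bid and Bcl2l11 rose and Bbc3 fell, with Bmf limited as described. Bid, cleaved by caspase-8 into an activator of BAX and BAK, had 177, 259, 245 and 192 in control, 383, 348, 347 and 318 with PBS and 383, 340, 376 and 289 with hWJ-MSCs. Bcl2l11, whose product BIM binds all survival members, had 101, 91, 68 and 146, then 211, 164, 142 and 322, and then 158, 104, 134 and 123. For Bid both Con A groups were above control without overlap, whereas for Bcl2l11 the highest control mouse exceeded the lowest Con A + PBS mouse. The log2 fold change with Con A was 0.69 for Bid (SE 0.14, limma adjusted p = 0.00116) and 1.02 for Bcl2l11 (SE 0.27, limma adjusted p = 0.00601).

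Bbc3, which encodes the p53 target PUMA, had 395, 270, 324 and 268 in control, 123, 146, 141 and 112 with PBS and 131, 152, 146 and 112 with hWJ-MSCs. Bmf, whose product is held at the cytoskeleton through dynein light chain 2, had 64, 135, 105 and 208, then 30, 36, 39 and 38, and then 41, 38, 50 and 50. No mouse given Con A reached the lowest control mouse for either gene. Bbc3 fell by 1.25 on the log2 scale with Con A (SE 0.15, limma adjusted p = 3.1e-05) and Bmf by 1.69 (SE 0.29, limma adjusted p = 0.000406). The direction of Bmf followed from how it entered the table, and its fall is no independent result. The other 8 members were at 64 or more in all 12 mice.

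The 8 calls made with Con A were also made in each of the 12 fits that left out 1 mouse. Members with no overlap between Con A + PBS and control mice numbered 5 above control and 2 below (Bbc3 and Bmf), where 27.1% and 23.4% of all genes did so.

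**Figure D2:**
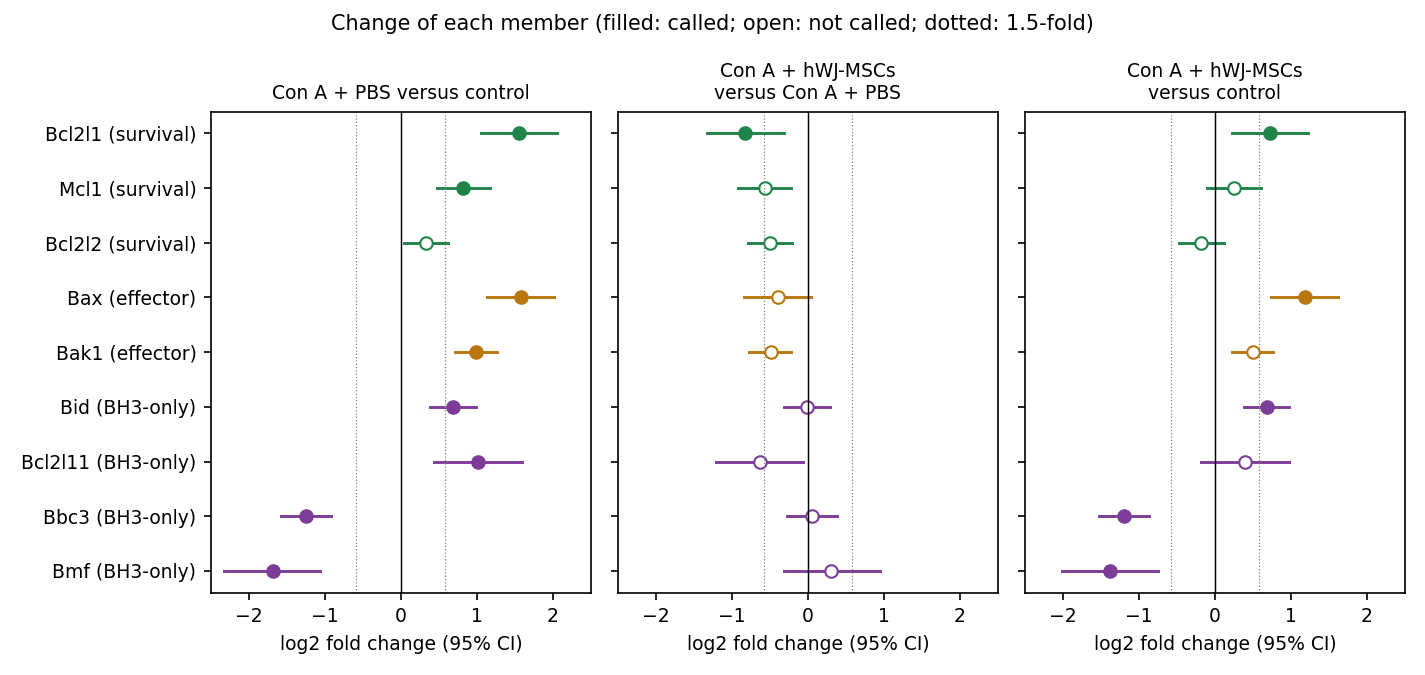
The plot of member changes gives the log2 fold change (horizontal axis, point) with its 95% CI (line) for the 9 members in the 3 comparisons, coloured by role, with filled points for called genes and dotted lines at 1.5-fold. With Con A 8 points are filled, and between the Con A groups only Bcl2l1 is, at -0.83.

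With hWJ-MSCs in place of PBS, 4 members had lower means at an adjusted p below 0.05, the survival genes Bcl2l1, Mcl1 and Bcl2l2 and the effector gene Bak1, and of these Bcl2l1 alone passed the fold limit. None of the 4 kept an adjusted p below 0.05 in every fit that left out 1 mouse. Of the 9 members, 0 rose and 1 fell, Bcl2l1, where 4.20% of all genes were called up and 4.38% down. At an unadjusted p below 0.05 and the same fold, 0 rose and 2 fell, Bcl2l11 being the second (limma). How many of all genes passed an adjusted p alone, or an unadjusted p with the fold limit, was not counted. The median log2 fold change of the members was -0.49, with 0.00 for all genes. For Bcl2l1 and Bak1 all 4 mice given cells lay below all 4 given PBS, and no member lay wholly above, where 11.6% of all genes were wholly lower and 11.9% wholly higher.

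Bcl2l1 fell by 0.83 on the log2 scale in mice given hWJ-MSCs (SE 0.23, limma adjusted p = 0.0402). This call was fragile: it was lost in 10 of 12 fits that each left out 1 mouse, where the limma adjusted p ran from 0.0163 to 0.115, and was kept only without control mouse 1 or without Con A + PBS mouse 2. In 9 of the 10 lost fits the log2 fold change was -0.91 to -0.71 and the adjusted p alone ended the call. Without Con A + PBS mouse 4, the highest, the fall was 0.55 on the log2 scale, under the 1.5-fold limit as well. With only the 8 mice of both Con A groups in the fit, the log2 fold change was again -0.83 and the limma adjusted p was 0.076.

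Mcl1, Bcl2l2 and Bak1 had limma adjusted p-values of 0.0408, 0.0359 and 0.0324 but differences under 1.5-fold. Their log2 fold changes were -0.57 (95% CI -0.92 to -0.22) for Mcl1, -0.50 (95% CI -0.79 to -0.21) for Bcl2l2 and -0.49 (95% CI -0.77 to -0.22) for Bak1. Leaving out 1 mouse at a time, the limma adjusted p was 0.05 or more in 6 of 12 fits for Mcl1 (0.0315 to 0.117), in 6 for Bcl2l2 (0.0153 to 0.103) and in 4 for Bak1 (0.0194 to 0.098). With only the 8 mice compared it was 0.0639, 0.0618 and 0.0368. Mcl1 passed both limits when Con A + hWJ-MSCs mouse 1 was left out (-0.68), or Con A + PBS mouse 2 (-0.63) or mouse 3 (-0.66). Bcl2l2 passed both without Con A + hWJ-MSCs mouse 4 (-0.63), the mouse at 382 while the other 3 of its group were at 264 to 265.

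Bax differed by -0.40 on the log2 scale between the Con A groups (95% CI -0.84 to 0.04, limma adjusted p = 0.18), with the mice given cells spread from 399 to 817. Bcl2l11 differed by -0.63 (95% CI -1.21 to -0.06, limma adjusted p = 0.114). Neither was called, and their intervals leave room for a fall of more than 1.5-fold. The Bax difference was -0.20 without Con A + hWJ-MSCs mouse 2, the lowest of its group, and the Bcl2l11 difference -0.40 without Con A + PBS mouse 4, the highest of its group. Bid and Bbc3 had narrower intervals around small differences, -0.01 (95% CI -0.31 to 0.29) for Bid and 0.05 (95% CI -0.28 to 0.38) for Bbc3, both inside 1.5-fold in either direction. Bmf differed by 0.31 (95% CI -0.32 to 0.95), at values below 64 in every mouse of both groups.

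Compared with control mice, mice given Con A and hWJ-MSCs had 3 members higher (Bcl2l1, Bax and Bid) and 2 lower (Bbc3 and Bmf, the latter limited by the floor), where 13.6% and 13.1% of all genes were called up and down. The members' median log2 fold change was 0.39, or 0.45 without Bmf, with 0.04 for all genes. Bax stood 1.18 above control on the log2 scale (95% CI 0.74 to 1.62), Bcl2l1 0.72 above (95% CI 0.22 to 1.23) and Bid 0.68 above (95% CI 0.38 to 0.98). Bbc3 was 2.30-fold and Bmf 2.60-fold lower than in control mice. Members without overlap were 4 above control (these 3 and Bak1) and 2 below, with 20.6% and 17.3% of all genes in those positions.

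Bak1 was 0.50 above control on the log2 scale (limma adjusted p = 0.00797), under the fold limit. The remaining survival genes, Mcl1 at 0.25 (95% CI -0.10 to 0.60) and Bcl2l2 at -0.18 (95% CI -0.47 to 0.12), were not called, nor was Bcl2l11 at 0.39 (95% CI -0.19 to 0.97). The Bcl2l1 call was lost in 5 of 12 fits that left out 1 mouse, namely Con A + hWJ-MSCs mouse 1, 3 or 4 or control mouse 2 or 3, with log2 fold changes from 0.65 to 0.84 over the 12. Bid fell just under the fold limit without control mouse 1, at 0.58.

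To set survival against death-promoting genes in each mouse, log2(value + 1) of each gene was centred on its control mean and averaged by role. These means are descriptions of chosen genes, with no test. The survival mean was 0.96, 0.58, 0.77 and 1.28 in Con A + PBS mice 1 to 4 and 0.41, 0.00, 0.27 and 0.39 in Con A + hWJ-MSCs mice 1 to 4. The effector mean was 1.36, 1.18, 1.17 and 1.43 and then 1.16, 0.45, 0.93 and 0.82. In both Con A groups each mouse had a higher effector mean than survival mean.

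The BH3-only mean was -0.31 ± 0.08 with PBS and -0.38 ± 0.11 with hWJ-MSCs (SD, n = 4), with Bid and Bcl2l11 raised and Bbc3 and Bmf lowered within it. Its sign with PBS rested on both lowered genes: without Bmf the mean was 0.15 ± 0.10 with PBS and -0.05 ± 0.15 with hWJ-MSCs, and without Bbc3 it was 0.006 and -0.105. Survival minus effector was -0.39 ± 0.18 and -0.57 ± 0.16, and survival minus BH3-only was 1.21 ± 0.24 and 0.64 ± 0.18, or 0.74 ± 0.22 and 0.31 ± 0.23 without Bmf. With or without Bmf, the sign of the balance differed between the effectors and the BH3-only genes. Over all 6 death-promoting genes, survival minus death-promoting was 0.68 ± 0.22 with PBS and 0.24 ± 0.14 with hWJ-MSCs, and 0.00 ± 0.06 in control mice.

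That pooled balance turned on which genes entered it. Leaving out Bmf brought it to 0.29 with PBS and -0.04 with hWJ-MSCs, leaving out Bbc3 to 0.38 and -0.01, and leaving out Bcl2l1 to 0.35 and 0.01. Leaving out Bax gave 0.95 and 0.47, and leaving out Bcl2l2 0.96 and 0.46. In every one of these versions it was lower with hWJ-MSCs than with PBS.

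Single pairs varied in sign and size. Bcl2l1 minus Bax was -0.03 ± 0.40 with PBS and -0.46 ± 0.20 with hWJ-MSCs, with control mice between -0.35 and 0.48. Mcl1 minus Bax was -0.76 ± 0.14 and -0.93 ± 0.20, below every control mouse in all 8 mice given Con A. Bcl2l1 minus Bak1 was 0.56 ± 0.58 and 0.22 ± 0.13, where Con A + PBS mouse 4 alone reached 1.36 and the groups overlapped.

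**Figure D3:**
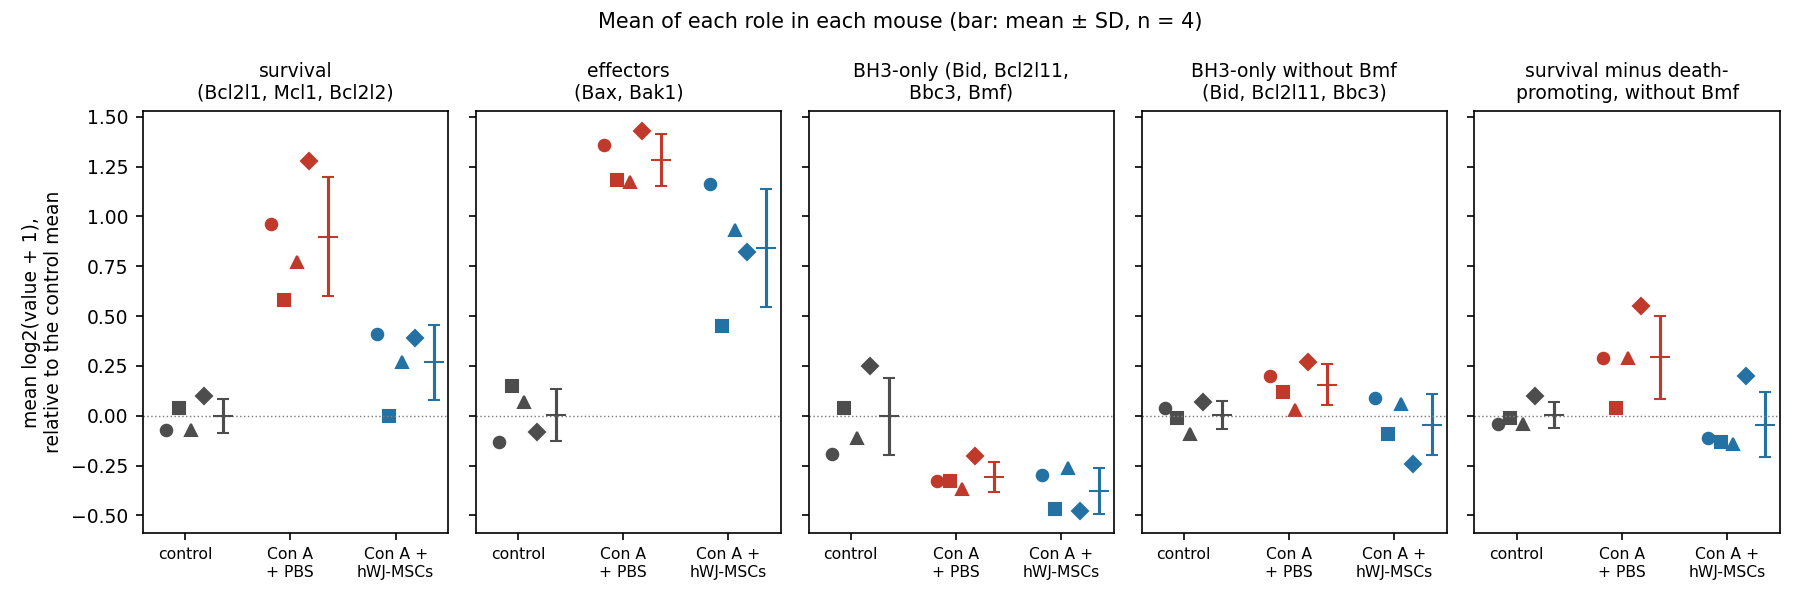
The plot of role means by mouse gives, for survival, effector and BH3-only genes, for BH3-only genes without Bmf and for survival minus death-promoting genes without Bmf, the mean of log2(value + 1) relative to the control mean (vertical axis) in each mouse, with bars for the mean ± SD (n = 4). The effector means of both Con A groups lie above control, their BH3-only means lie below 0 with Bmf and between -0.24 and 0.27 without it, and with hWJ-MSCs the survival means lie between 0.00 and 0.41.

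Genes whose pattern over the 12 mice was most like that of 1 member of each role were sought. The measure was the root mean square (RMS) difference of log2 values, each gene centred on its mean over the 12 mice. Nearest to Bcl2l1 were Efhd2 (RMS difference 0.10), Tsr1 (0.14) and Naa50 (0.16). Nearest to Bax were Krt18 (0.14), Pgk1 (0.18) and Ifi205 (0.20), and nearest to Bmf were Ctsf (0.27), Pald1 (0.32) and Tarsl2 (0.32). The member taken for each role was the one with the largest change with Con A. Bmf entered the table as a gene higher in control mice, so genes matched to it follow that direction too.

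The rest of the family and the genes around it were described by 4 lists, of which 46 of 53 genes had a row. With Con A 18 rose and 4 fell, where 19.5% of all genes were called up and 19.2% down. Bcl2a1a, Gzmb, Hspa1a and Apaf1 entered the table through the Con A mice, and without them 14 of 42 rose and 4 fell. Between the Con A groups 1 rose and 4 fell with hWJ-MSCs, against the shares over all genes given for the members. That small count rested on single mice: it was 0 without Con A + hWJ-MSCs mouse 2 or 3 or Con A + PBS mouse 1, 2 without Con A + PBS mouse 4, 3 without Con A + hWJ-MSCs mouse 1 or Con A + PBS mouse 3, 9 without control mouse 1 and 10 without Con A + PBS mouse 2. With only the 8 mice compared, 2 of the 5 calls were kept.

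Among the other family genes, 9 of 15 had a row, 4 rose with Con A and none was called between the Con A groups (limma), where 3 had an unadjusted p below 0.05. Bnip3 and Bnip3l, BH3-like proteins that mark mitochondria for removal, rose by 0.88 and 0.72 on the log2 scale (limma adjusted p = 0.00238 and 0.000531). Bnip3l was lower with hWJ-MSCs by a log2 fold change of -0.52 (limma adjusted p = 0.031), under the fold limit. Bcl2a1b, a survival gene of blood cells, went from 84.2 ± 6.75 to 152 ± 37.2 with PBS and 152 ± 12.3 with hWJ-MSCs (SD, n = 4). Bcl2a1a was called up from control values of 32, 0, 0 and 68 to 75, 105, 77 and 72, and is among the genes that entered through the Con A mice. Bcl2a1d, a further copy, was 0.65 higher on the log2 scale with Con A, overlapped control and was not called (limma adjusted p = 0.0546). Bcl2a1a, Bcl2a1b and Bcl2a1d are near-identical copies, so reads may have been split among them and their values are uncertain.

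Of 12 regulators of transcription of the family, 6 rose with Con A (Jun, Ddit3, Stat3, Trib3, Nfkb1 and Rela), Foxo3 fell, and Jun and Cebpb fell with hWJ-MSCs. In that last comparison 2 of the 12 were called, where 4.38% of all genes were called down. Of the 12, 10 had an unadjusted p below 0.05 (limma) and 11 a negative log2 fold change. How many of all genes did so was not counted, so no weight is put on these counts. The median was -0.52, with 0.00 for all genes. Jun, part of the AP-1 factor, rose by 2.04 on the log2 scale with Con A and fell by 1.28 with hWJ-MSCs (limma adjusted p = 0.000209 and 0.0305). Jun was at 811 to 2687 with PBS and 377 to 698 with hWJ-MSCs, without overlap. Ddit3, the stress factor CHOP, rose by 1.39 with Con A and was 0.22 higher with hWJ-MSCs (limma adjusted p = 0.538). Stat3, a factor that drives Bcl2l1 and Mcl1 in many cells, rose by 1.00 and Trib3, induced by CHOP, by 0.99. With hWJ-MSCs their log2 fold changes were -0.69 and -0.88 (limma adjusted p = 0.0579 and 0.0518), and neither was called. The NF-kB subunit genes Nfkb1 and Rela rose by 0.76 and 0.75, and with hWJ-MSCs differed by -0.40 and -0.50 (limma adjusted p = 0.0379 and 0.0343), under the fold limit.

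Of 12 regulators of the proteins, 5 rose with Con A and 1 fell (3 and 1 of 10 without Gzmb and Hspa1a, which reached 64 in no control mouse), and none was called between the Con A groups (limma), where 5 had an unadjusted p below 0.05. Gzmb, the granzyme of killer lymphocytes that cleaves BID, went from 11.8 ± 2.63 in control to 518 ± 146 with PBS and 393 ± 134 with hWJ-MSCs (SD, n = 4). Casp8, whose product also cleaves BID, rose by 0.76 and was -0.04 different with hWJ-MSCs on the log2 scale. Usp9x, an enzyme that spares MCL-1 from degradation, rose by 0.69. Dynll1, the dynein light chain that holds BIM, rose by 1.62, while Dynll2, the light chain that holds BMF, fell by 0.65. Hspa1a, a heat shock gene with a near-identical copy and therefore an uncertain value, was at 6 to 32 in control mice, 134 to 270 with PBS and 73 to 118 with hWJ-MSCs.

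Downstream of the outer membrane, 13 of 14 genes had a row. With Con A, Apaf1, Cycs and Birc2 rose and Casp9 and Aifm1 fell. These 3 rises and 2 falls among 13 (2 and 2 among 12 without Apaf1) were near the shares over all genes, 19.5% up and 19.2% down. The list as a whole therefore did not stand out. With hWJ-MSCs Apaf1 and Birc3 fell and Casp6, an executioner caspase, was called up, where 4.20% of all genes were called up and 4.38% down. The Casp6 call was weak: no gene of the 4 lists was called up in 9 of 12 fits that left out 1 mouse, with only the 8 mice compared or without a variance trend. Apaf1, the scaffold on which caspase-9 is activated, was at 38 to 71 in control mice, 145 to 297 with PBS and 93 to 112 with hWJ-MSCs, and the groups did not overlap. It reached 64 in 1 control mouse, so its rise is limited by the floor too, while its difference between the Con A groups is not. Its log2 fold change was 2.04 with Con A and -1.05 with hWJ-MSCs against PBS (limma adjusted p = 2.07e-05 and 0.0252). Casp9, the caspase that APAF1 activates, fell by 0.95 with Con A and differed by 0.08 with hWJ-MSCs. Cycs, cytochrome c itself, rose by 0.93 and differed by -0.06. Birc2, an inhibitor of apoptosis gene, rose by 0.94, Birc3, a relative of it, was 0.57 higher with Con A and fell by 0.67 with hWJ-MSCs, and Aifm1, a mitochondrial flavoprotein, fell by 0.93 with Con A.

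**Figure D4:**
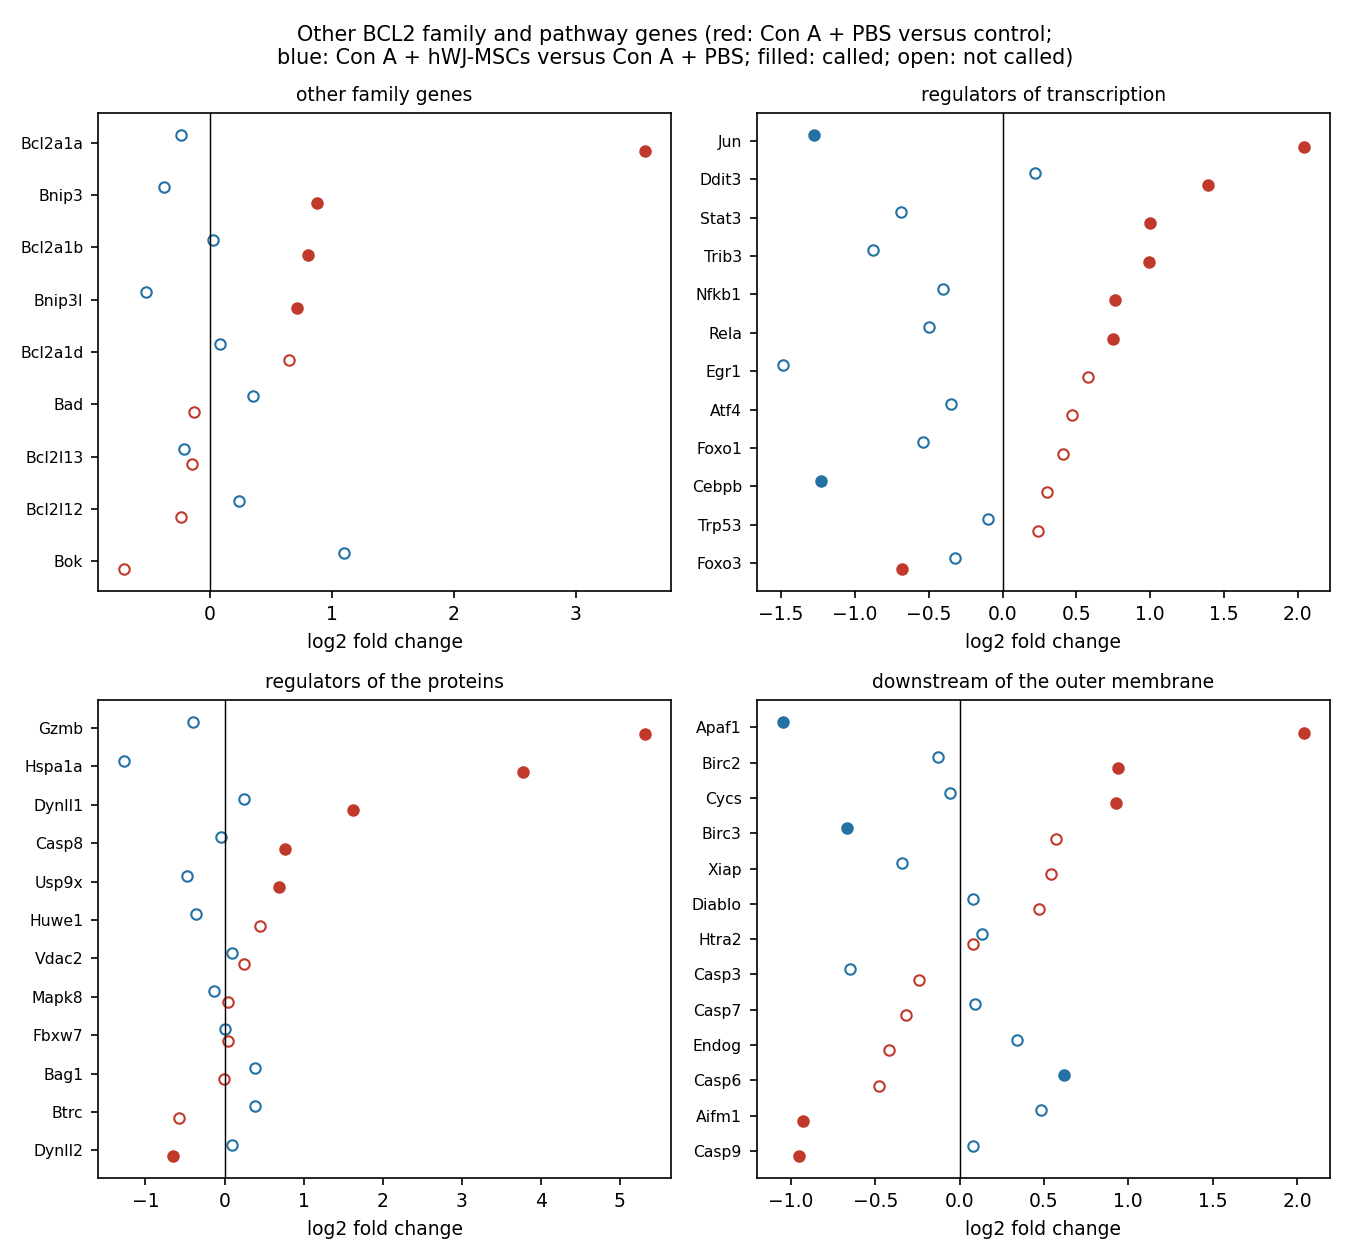
The plot of other family and pathway genes gives the log2 fold change (horizontal axis, scaled for each list) of 46 genes in 4 lists for Con A + PBS against control (red) and for hWJ-MSCs against PBS after Con A (blue), with filled points for called genes. Gzmb, at 5.32, lies farthest to the right but entered the table through the Con A mice, and Jun and Apaf1 are called in both comparisons with opposite signs.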

How the data were processed

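Liver RNA of 12 mice (4 per group, by the labels) was sequenced. The deposited table is named as counts, but its whole numbers had nearly equal totals in all mice (range 0.0425% of the median), the same median, a shared ceiling and a floor of 64 in at least 2 mice. The deposited values were therefore treated as a score normalised between mice, by a step not given in the sources used here, and no count test was run. The submitters' processing notes name Bowtie2 2.2.1, RSEM 1.2.18 and mm10. 

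Values were fitted as log2(value + 1) in limma 3.58.1 (R 4.3.3, lmFit and eBayes with trend), with all 12 mice and no covariates. A first run on simulated normal values did not model the ties, ceiling or floor of the deposited values, so it does not test the fits for these. Depth is unknown. Nothing in the labels ties mice to cages or days. All listed members were named; of each pathway list every gene called with Con A or between the Con A groups was named, at most 6 with values, by the largest change with Con A. Members and lists were chosen with earlier results of these data known. Promoters came from RefSeq; protein sequences were not analysed here. Alternatives were the pseudocount, filter, scaling, variance model, mice fitted, thresholds, a replicate block and leaving out each mouse.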

Additional observations from a re-analysis of the deposited data

Results flagged for a closer look

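Of 36 sets of 4 mice tested for a single outlying mouse, 2 stood out by Dixon's 95% criterion (the gap to the nearest mouse as a share of the group's range), where chance gives about 1 in 20. Bcl2l2 in Con A + hWJ-MSCs mouse 4 was 382, with the other 3 mice at 264, 264 and 265, a gap of 0.992 of the range. Survival minus death-promoting genes was 0.10 in control mouse 1 and -0.04, -0.02 and -0.04 in the others on the log2 scale, a gap of 0.857.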

How the results depend on the processing

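The 8 members called with Con A numbered 8 in every fit leaving out 1 mouse and 5 at a fold change above 2, which removed Mcl1, Bak1 and Bid. Between the Con A groups the 1 member called became 0 at a fold above 2, 0 with only the 8 mice compared, 4 without a fold limit and 2 with unadjusted p, and ran from 0 to 2 over fits leaving out 1 mouse. With hWJ-MSCs against control, 5 members became 3 at a fold above 2 and ran from 4 to 5. The other family and pathway genes numbered 22 with Con A (21 to 25 leaving out 1 mouse), or 7 at a fold above 2. Between the Con A groups they numbered 5, or 3 at a fold above 2, 9 without a fold limit and 11 with unadjusted p (0 to 10 leaving out 1 mouse). The survival minus death-promoting balance was 0.68 with Con A, ranging from 0.59 to 0.76 when 1 mouse was left out. Against control with hWJ-MSCs it was 0.24 (0.17 to 0.27), and between the Con A groups it ran from -0.53 to -0.35. With only genes of mean at least 100, which drops Bmf, it was 0.29 with Con A and -0.043 with hWJ-MSCs. Without single genes it was 0.95 and 0.47 (Bax), 0.38 and -0.0076 (Bbc3), 0.35 and 0.0096 (Bcl2l1), 0.96 and 0.46 (Bcl2l2) and 0.29 and -0.043 (Bmf). Chosen after seeing the data, leaving out Bmf gave 7, 1 and 4 members called and a BH3-only mean of 0.15 with PBS and -0.046 with hWJ-MSCs in place of -0.31 and -0.38. The labels number the mice alike in each group. Same-number correlations of deviations ran from -0.118 to 0.375, with 4 of 12 above 0.1. Between the Con A groups 2 of 4 were above 0.1, at 0.375 for mouse 2 and 0.244 for mouse 4. Whether the numbers pair mice of those groups is therefore not settled, and the main fit used no pairing. A replicate block left the member counts at 8, 1 and 5 and moved the pathway count between the Con A groups from 5 to 8. The causes of these shifts were not tested. Depth is unknown, so its limits cannot be given.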
